A study of Homo sapiens with 6 samples.

Results

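The replication-dependent histone genes supply the core histones H2A, H2B, H3 and H4 and the linker histone H1 that package newly copied DNA. They were taken from the deposited expression table by their gene symbols (H1-1 to H1-6 and every symbol beginning H2AC, H2BC, H3C or H4C followed by a number), which gave 58 of the table's 17280 genes: 6 of class H1, 14 of H2A, 14 of H2B, 13 of H3 and 11 of H4. The 6 libraries hold RNA of sphere cells of CAL-27, a human tongue squamous carcinoma cell line. Of these, 3 are titled LF3, a small molecule known to disrupt the beta-catenin/TCF4 interaction and called a Wnt inhibitor in the series design, which gives an exposure of 24 h. The treatment field of the same 3 libraries instead names elesclomol-Cu for that time, elesclomol being a copper ionophore. Groups follow the titles here, and the labels alone do not settle which agent was used. The other 3 libraries, titled CON, are normal controls with no vehicle named. All come from 1 cell line, and separate cultures are not mentioned, so the p-values cover the spread among these 6 libraries, possibly a technical one.

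These genes have no introns, lie in clusters, and are known for being transcribed during S phase, when the cell copies its DNA. Most of their mRNAs carry no poly(A) tail and end just after a short stem-loop that is bound by SLBP, the protein that governs their processing, translation and decay. Cyclin E with CDK2 switches on their transcription through NPAT, and their mRNAs are degraded when DNA synthesis stops. A smaller set is also known to give polyadenylated mRNA, above all in cells that have left the cycle. Selection of poly(A) RNA and strandedness were not given in the sources used here. Levels below therefore cannot be read as the whole histone mRNA of the cells. In bulk RNA, fewer cells making histone mRNA and less of it per cell cannot be told apart.

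The stem-loop is shown first because it is the feature that sets these mRNAs apart. It was found in GENCODE v29 transcripts of 27 of the 58 genes, none of class H1, in 6 forms, written here as DNA from 5′ to 3′ with the loop in capitals. Many other transcripts in that annotation stop at or near the end of the coding sequence, so a missing match says only that these letters are not in the annotated transcript.
H2AC18, H2AC6, H2BC21 and 11 other genes of classes H2A, H2B and H3: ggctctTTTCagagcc
H2BC4, H2BC5, H2BC7 and H3C8: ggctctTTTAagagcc
H4C2, H4C5, H4C8 and H4C11: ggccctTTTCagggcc
H4C9, H4C14 and H4C15: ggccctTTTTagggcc
H2AC11: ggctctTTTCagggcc
H3C6: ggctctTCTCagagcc
At least 1 annotated transcript ran more than 100 bases past the stem-loop in 20 of the 27 genes. For H2BC21 it ran 1729 bases past it, and for H2AC18 only 35.

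Histone mRNA was lower in the LF3 libraries in every class. The 58 genes together held 271, 273 and 259 TPM in LF3 libraries, against 2676, 2697 and 2591 TPM in CON libraries, where TPM is a gene's length-corrected share of all transcripts. The sum was 268 ± 7.82 TPM in LF3 and 2655 ± 55.8 TPM in CON (SD, n = 3 each), 9.91-fold lower in LF3, and no value of either group came near the other. As a share of all TPM it was 0.0268% in LF3 and 0.266% in CON. Sums of chosen genes were not tested. They are given because an exchange of reads between near-identical copies among the 58 changes each value more than their sum. Copies outside the 58, such as that of H2AC18, are not covered by this. Treatment of reads that match several copies was not given, so the sums may be touched by it too.

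By class, the linker histones were lowest relative to CON, at 46.1 ± 2.02 TPM in LF3 and 697 ± 9.36 TPM in CON, 15.1-fold lower in LF3. The H2A sum was 60.8 ± 1.30 TPM in LF3 and 749 ± 15.2 TPM in CON, 12.3-fold lower. The H2B sum was 97.9 ± 6.04 TPM in LF3 and 812 ± 2.74 TPM in CON, 8.29-fold lower. These 3 classes made up most of the histone mRNA in both groups. The H4 sum was 47.6 ± 2.19 TPM in LF3 and 351 ± 34.8 TPM in CON, 7.38-fold lower. The H3 sum, the smallest in both groups, was 15.4 ± 2.06 TPM in LF3 and 46.5 ± 1.95 TPM in CON, 3.02-fold lower. The H2A sum leans on a single gene: without H2AC18 the log2 ratio of the H2A sums was -2.48 in place of -3.62. Without the most abundant member of each class, the ratio was -2.90 in place of -3.05 for H2B and -1.18 in place of -1.59 for H3. The H2B ratio was -4.07 with only the genes that share at most 50% of their 50-base windows with another gene. That restriction was chosen after seeing the data.

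**Figure D1:**
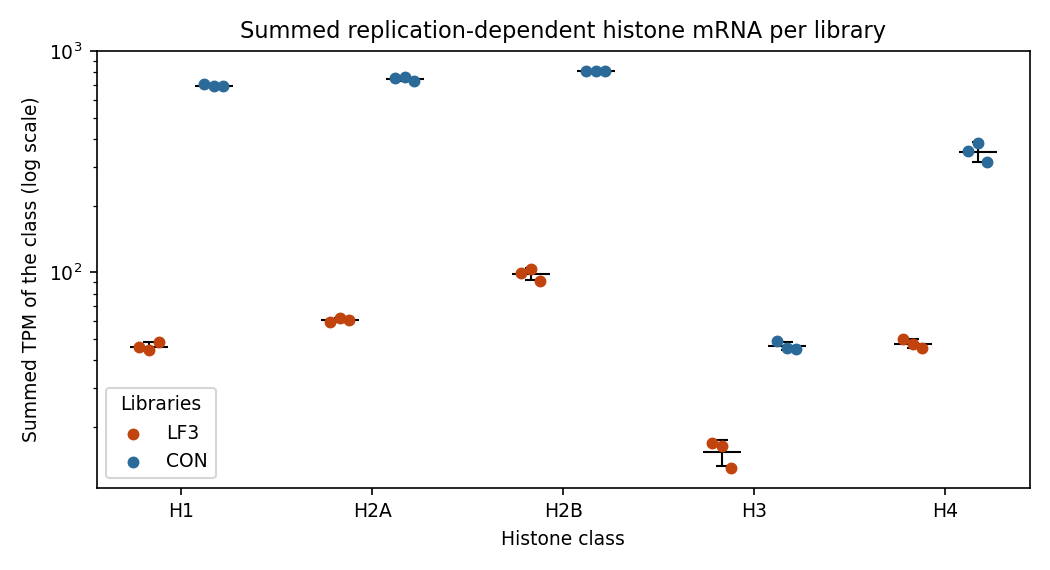
Summed TPM of each histone class (log axis) in the 3 LF3 and 3 CON libraries; points are libraries and bars the mean ± SD. LF3 points lie below CON points in all 5 classes, from 15.1-fold for H1 to 3.02-fold for H3.

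Gene by gene, the values were tested with limma on log2(TPM + 1) across the 12195 genes averaging 1 TPM or more over the 6 libraries, and a gene was called at a Benjamini-Hochberg adjusted p under 0.05. Of the 58 histone genes 42 reached that mean, and 37 of these were called lower in LF3, 0 higher and 5 neither, where 32.3% of all tested genes were called lower and 53.2% higher. Of the 42 genes, 10 averaged under 1 TPM in LF3 and reached the mean through CON, so that count is a description of the genes that passed. With no filter all 58 could be fitted: 39 were lower and 1 was higher, against 28.2% lower and 39.5% higher among all 17278 genes with a value above 0. In that fit the median log2 fold change was -1.17 over the 58 genes and 0.02 over all genes. In 40 of the 58 genes every LF3 value lay below every CON value, and in 1 above, against 30% and 40.5% of all genes. The LF3 mean was at least 4-fold lower in 28 of the 58, against 12.8% of all genes, and in 26 of the 42 tested, against 4.55% of tested genes. The 26 include genes that reached the mean only through CON, such as H2BC7 and H4C5, so that count too describes the genes that passed. Changes on the log2 scale below are LF3 minus CON ± the limma standard error, and the log2(TPM + 1) scale understates those of low genes.

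**Figure D2:**
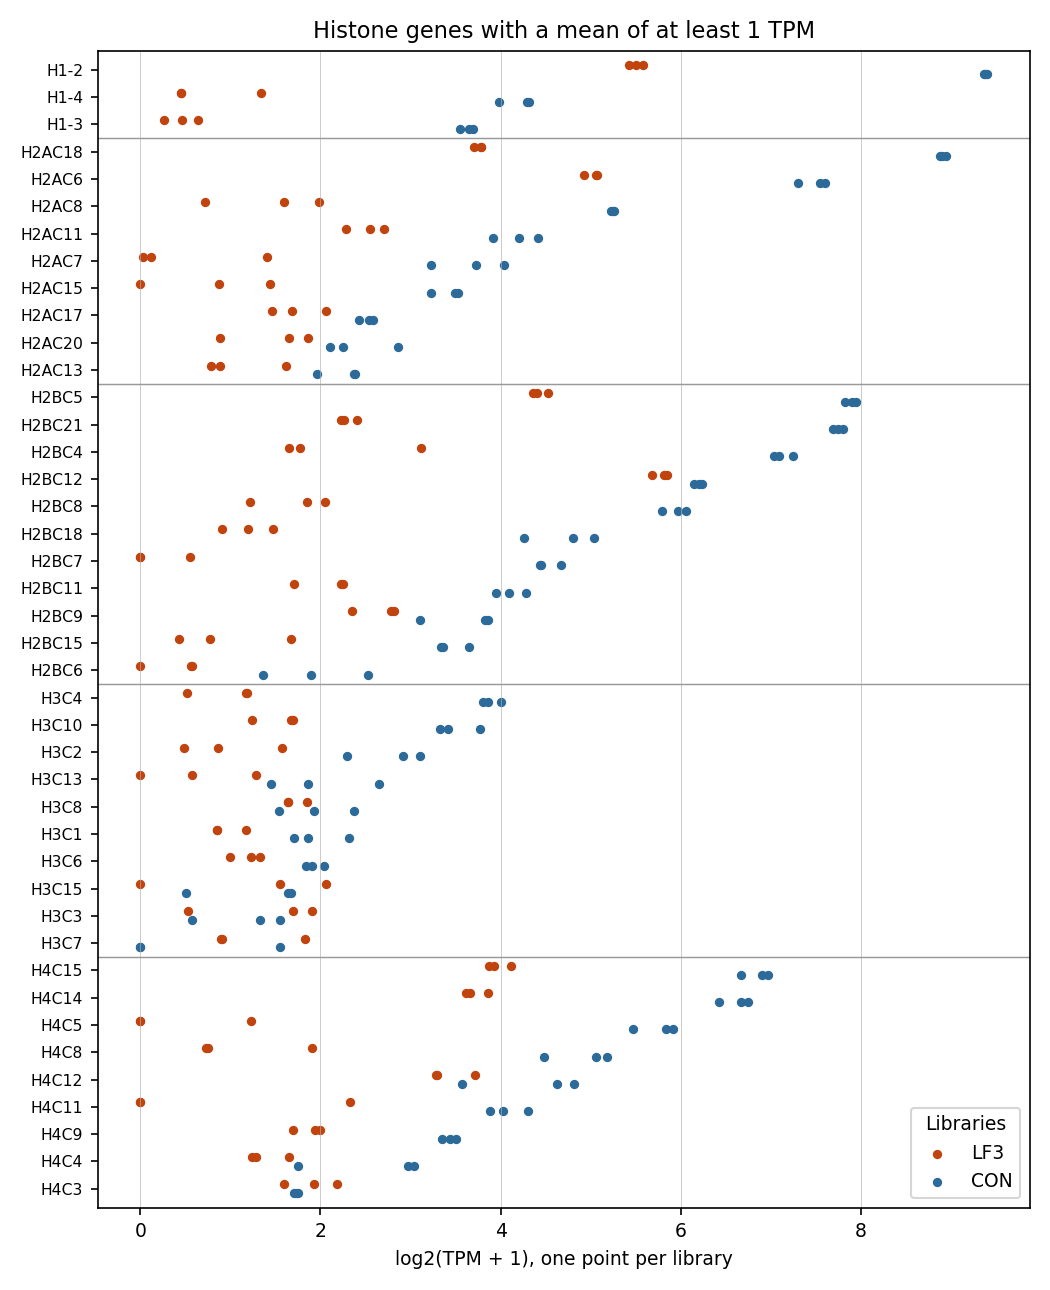
log2(TPM + 1) of the 42 tested histone genes, a point per library, LF3 above CON in each row, ordered within each class by the CON mean. The groups stand apart for the abundant genes of every class and overlap for H3C8, H3C15, H3C3, H3C7, H4C12 and H4C3.

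The linker histones bind the DNA between nucleosomes. H1-2, a somatic H1 also known to give polyadenylated mRNA, had 44.40, 42.03 and 47.02 TPM in LF3 libraries, against 677, 664 and 659 TPM in CON libraries. It was the most abundant of the 58 genes in CON and fell by 3.88 ± 0.044 on the log2 scale (limma adjusted p = 3.86e-13), a 14.99-fold lower mean in LF3. It supplied 96.4 ± 1.40% of the H1 sum in LF3 and 95.7 ± 0.290% in CON, so the class sum is in effect this gene. H1-3 had 0.38, 0.20 and 0.56 TPM in LF3 libraries, against 10.71, 11.95 and 11.55 TPM in CON libraries (log2 fold change -3.17 ± 0.11, adjusted p = 4.51e-10). H1-4 had 0.37, 1.53 and 0.37 TPM in LF3 libraries, against 18.98, 14.76 and 18.56 TPM in CON libraries (-3.45 ± 0.21, adjusted p = 4.39e-08). Both were near the limit of the table in LF3, with no overlap. H1-5 was at 0.367 TPM in LF3 and 0.593 TPM in CON, and H1-6, the testis form, was listed at 0 in every LF3 library and at 0.310 TPM on average in CON. H1-1 was at 0 to 0.210 TPM in all 6 libraries. None of these last genes reached the mean for testing.

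Among H2A genes, H2AC18 led in CON and H2AC6 in LF3. H2AC18 had 12.02, 12.80 and 12.80 TPM in LF3 libraries, against 476, 470 and 493 TPM in CON libraries. It fell by 5.15 ± 0.043 on the log2 scale (adjusted p = 1.18e-13), a 38.3-fold lower mean. Every 50-base window of its transcript also occurs in another gene, most often in its copy HIST2H2AA4, which is not analysed here, so its value may stand for both. H2AC6, which shares 0.4% of its windows, had 32.3, 29.4 and 32.5 TPM in LF3 libraries, against 186, 193 and 157 TPM in CON libraries. It fell by 2.47 ± 0.074 (adjusted p = 1.59e-10), 5.70-fold. The makeup of the class differed accordingly: H2AC18 supplied 20.6 ± 0.410% of the H2A sum in LF3 and 64.1 ± 2.93% in CON, and H2AC6 supplied 51.7 ± 3.72% in LF3 and 23.9 ± 2.09% in CON. H2AC8 had 2.95, 2.03 and 0.65 TPM in LF3 libraries, against 37.4, 36.4 and 36.9 TPM in CON libraries, and shares no window with another gene. The other 6 tested H2A genes were low and all called lower, by 0.78 (H2AC17) to 3.15 (H2AC7) on the log2 scale. H2AC11 had 5.55, 4.87 and 3.89 TPM in LF3 libraries, against 17.50, 20.41 and 14.11 TPM in CON libraries. H2AC7 had 0.09, 1.65 and 0.02 TPM in LF3 libraries, against 12.27, 15.41 and 8.38 TPM in CON libraries. In H2AC7 the LF3 libraries differed widely from each other, yet none reached CON. H2AC15 had 0.84, 0 and 1.71 TPM in LF3 libraries, against 10.26, 10.55 and 8.36 TPM in CON libraries. H2AC17 had 1.75, 3.19 and 2.22 TPM in LF3 libraries, against 4.38, 5 and 4.83 TPM in CON libraries. LF3 lay below CON in every library of these genes and of the remaining pair. H2AC20 had 0.85, 2.65 and 2.15 TPM in LF3 libraries, against 3.30, 6.29 and 3.75 TPM in CON libraries. H2AC13 had 0.85, 2.07 and 0.72 TPM in LF3 libraries, against 4.22, 2.89 and 4.2 TPM in CON libraries. Of the 5 untested H2A genes, H2AC4 had 0.37, 0.39 and 0.75 TPM in LF3 libraries and was listed at 0 in all CON libraries. It is the gene called higher with no filter. H2AC14 was also at 0 in CON, with 0, 1.57 and 2.5 TPM in LF3. H2AC16 averaged 0.460 TPM in LF3 and 0.330 TPM in CON, and H2AC12 averaged 0.853 TPM in LF3 and 0.570 TPM in CON.

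The change differed widely among the H2B genes. H2BC21 had 4.32, 3.68 and 3.81 TPM in LF3 libraries, against 214, 222 and 205 TPM in CON libraries. It fell by 5.44 ± 0.061 on the log2 scale (adjusted p = 3.86e-13), 54.2-fold. H2BC12 had 56.5, 55.2 and 50.2 TPM in LF3 libraries, against 69.7, 74.3 and 72.8 TPM in CON libraries. The groups did not overlap, and it fell by 0.42 ± 0.053 (adjusted p = 2.11e-05), 1.34-fold. H2BC12 made up 55.1 ± 1.69% of the H2B sum in LF3 and 8.90 ± 0.274% in CON, while H2BC21 made up 4.03 ± 0.410% in LF3 and 26.3 ± 0.942% in CON. Of the annotated H2BC12 windows 74.1% occur in another gene, most often in the near-identical copy listed as H2BFS, against 8.1% for H2BC21.

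H2BC5 had 22.1, 19.6 and 20.2 TPM in LF3 libraries, against 238, 225 and 245 TPM in CON libraries, and fell by 3.45 ± 0.054 (adjusted p = 2.28e-12). H2BC4 had 2.14, 7.67 and 2.42 TPM in LF3 libraries, against 150, 135 and 130 TPM in CON libraries. LF3 replicate 2 was the highest of its group for H2BC4 but stayed far below CON, and the gene fell by 4.94 ± 0.30 (adjusted p = 4.17e-08). H2BC8 had 2.61, 3.16 and 1.32 TPM in LF3 libraries, against 54.5, 65.8 and 61.8 TPM in CON libraries. H2BC7 had 0.47, 0 and 0 TPM in LF3 libraries, against 20.8, 24.6 and 20.6 TPM in CON libraries. H2BC7 shares 0.1% of its windows and H2BC8 none; H2BC7 fell by 4.33 ± 0.15 (adjusted p = 4.07e-10) and H2BC8 fell by 4.23 ± 0.18 (adjusted p = 1.87e-09). The remaining tested members, H2BC6, H2BC9, H2BC11, H2BC15 and H2BC18, were all called lower, with log2 fold changes of -0.95 (H2BC9) to -3.51 (H2BC18). H2BC18 had 1.29, 1.78 and 0.87 TPM in LF3 libraries, against 18.11, 26.98 and 31.85 TPM in CON libraries. H2BC11 had 2.26, 3.76 and 3.68 TPM in LF3 libraries, against 16.09, 14.46 and 18.46 TPM in CON libraries. H2BC15 had 0.35, 2.19 and 0.71 TPM in LF3 libraries, against 9.24, 9.13 and 11.58 TPM in CON libraries. LF3 and CON did not overlap in any of these 3 genes. H2BC9 had 5.90, 4.10 and 6.03 TPM in LF3 libraries, against 13.22, 13.55 and 7.62 TPM in CON libraries. H2BC6 had 0, 0.49 and 0.48 TPM in LF3 libraries, against 4.76, 2.71 and 1.57 TPM in CON libraries. CON replicate 3 was the lowest of its group for both. H2BC17 and H2BC13 were at or below 2.15 TPM in every library, as was H2BC10, and were not tested.

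**Figure D3:**
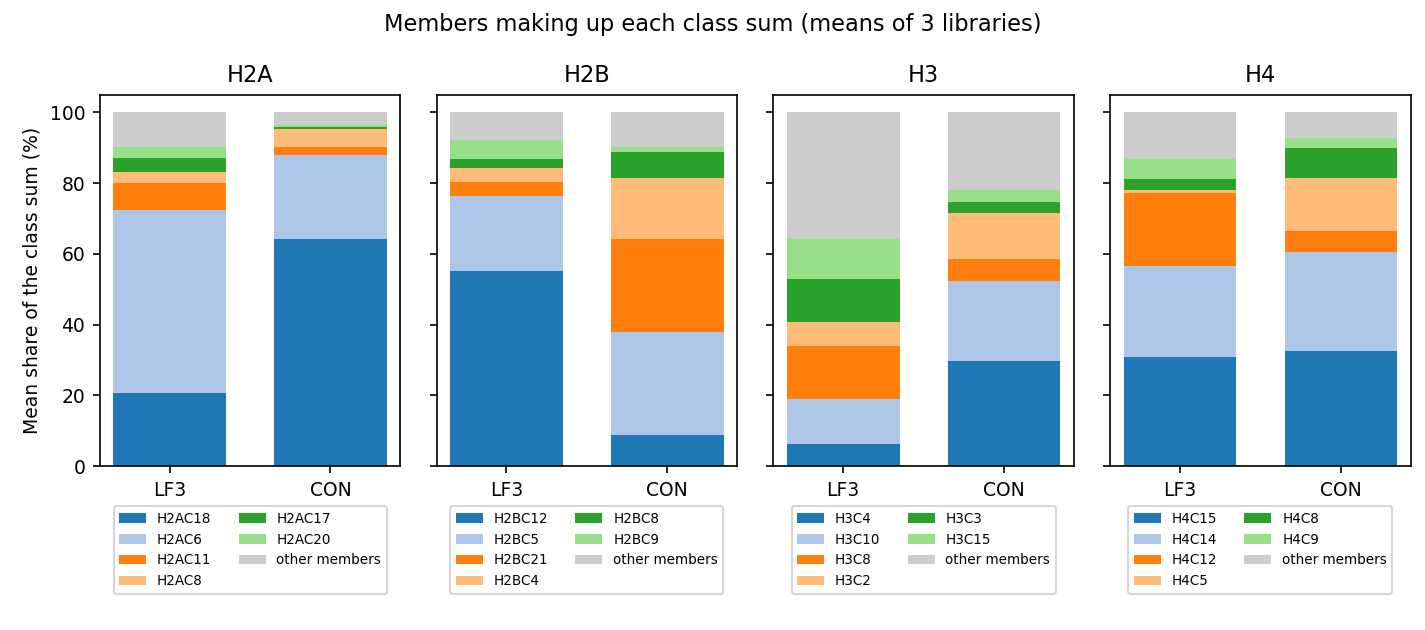
Mean share (%) of each class sum supplied by its members in 3 LF3 and 3 CON libraries, with the 6 members of largest share named and the rest in grey. H2BC12 takes 55.1% of H2B in LF3 and 8.90% in CON, and H2AC18 takes 20.6% of H2A in LF3 and 64.1% in CON.

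Histone H4 mRNA came mostly from a pair of near-identical copies. H4C15 had 16.4, 13.6 and 14.2 TPM in LF3 libraries, against 118, 125 and 101 TPM in CON libraries. H4C14 had 13.6, 11.3 and 11.6 TPM in LF3 libraries, against 101, 107 and 84.9 TPM in CON libraries. H4C14 shares 97.5% of its windows and H4C15 97.2%, mostly with each other, so most of their reads cannot be told apart. Their log2 fold changes were -2.88 ± 0.085 for H4C15 (adjusted p = 1.55e-10) and -2.90 ± 0.090 for H4C14 (adjusted p = 2.1e-10). Without them the H4 sum was 20.7 ± 1.76 TPM in LF3 and 139 ± 12.5 TPM in CON, 6.70-fold lower. H4C5, which shares no window, had 0, 0 and 1.34 TPM in LF3 libraries, against 56.2, 59.5 and 43.2 TPM in CON libraries, and fell by 5.33 ± 0.28 (adjusted p = 1.19e-08). H4C8, also with no shared window, had 0.66, 2.76 and 0.69 TPM in LF3 libraries, against 32.4, 35.3 and 21.3 TPM in CON libraries. It fell by 3.78 ± 0.29. These were the H4 genes that stood furthest apart and could be read singly. H4C11 had 0, 4.03 and 0 TPM in LF3 libraries, against 18.82, 13.71 and 15.33 TPM in CON libraries (-3.30 ± 0.50). H4C9 had 2.84, 2.24 and 2.98 TPM in LF3 libraries, against 9.83, 9.17 and 10.34 TPM in CON libraries (-1.55 ± 0.097). H4C4 had 1.37, 1.43 and 2.14 TPM in LF3 libraries, against 2.36, 7.20 and 6.87 TPM in CON libraries (-1.19 ± 0.29). All 3 were called lower and their groups did not overlap.

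Some H4 genes stood outside this pattern. H4C12 had 12.2, 8.71 and 8.8 TPM in LF3 libraries, against 10.9, 23.7 and 27.1 TPM in CON libraries, so the groups overlapped. It was called lower (-0.91 ± 0.26, adjusted p = 0.00796), and the call was lost with robust variances (adjusted p = 0.0762). All of its windows occur in another gene, most often in H4C11. H4C3 had 2.02, 3.54 and 2.82 TPM in LF3 libraries, against 2.32, 2.37 and 2.26 TPM in CON libraries. Its log2 fold change was 0.17 ± 0.14 (adjusted p = 0.251), and without LF3 replicate 1 it was 0.33 and called higher (adjusted p = 0.0207). H4C2, with a mean of 0.513 TPM in LF3 and 1.44 TPM in CON, was not tested, and H4C1 was listed at 0 in all LF3 libraries.

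Histone H3 genes were low in both groups. H3C4 had 1.25, 1.27 and 0.43 TPM in LF3 libraries, against 15.03, 13.52 and 13.02 TPM in CON libraries, and fell by 2.93 ± 0.16 (adjusted p = 1.83e-08). All of its windows also occur in other annotated transcripts. H3C10, which shares no window, had 2.2, 1.37 and 2.23 TPM in LF3 libraries, against 12.7, 9.03 and 9.71 TPM in CON libraries, and fell by 1.97 ± 0.15. H3C1, H3C2, H3C6 and H3C13 were called lower too, by 0.74 (H3C6) to 1.80 (H3C2). H3C2 had 1.98, 0.82 and 0.40 TPM in LF3 libraries, against 6.55, 7.64 and 3.92 TPM in CON libraries. H3C1 had 0.80, 1.25 and 0.81 TPM in LF3 libraries, against 2.65, 2.27 and 3.97 TPM in CON libraries. Neither shares a window with another gene. H3C6 had 1, 1.34 and 1.52 TPM in LF3 libraries, against 2.75, 2.57 and 3.11 TPM in CON libraries. H3C13 had 1.43, 0 and 0.49 TPM in LF3 libraries, against 5.30, 1.73 and 2.63 TPM in CON libraries. H3C3, H3C7, H3C8 and H3C15 did not pass. H3C8 had 2.11, 2.62 and 2.13 TPM in LF3 libraries, against 2.80, 1.92 and 4.18 TPM in CON libraries (-0.24 ± 0.18, adjusted p = 0.233); it was called lower without CON replicate 2 (-0.44, adjusted p = 0.0187) and after median-ratio scaling (-0.43, adjusted p = 0.0432). H3C3 had 0.44, 2.74 and 2.23 TPM in LF3 libraries, against 0.49, 1.51 and 1.94 TPM in CON libraries (0.22 ± 0.34, adjusted p = 0.553), and it was called higher without LF3 replicate 1 (0.64, adjusted p = 0.0282). In these genes the groups overlapped. H3C7 had 2.55, 0.88 and 0.86 TPM in LF3 libraries, against 0, 1.94 and 0 TPM in CON libraries (0.69 ± 0.39, adjusted p = 0.119). H3C15 had 0, 3.19 and 1.94 TPM in LF3 libraries, against 0.42, 2.18 and 2.12 TPM in CON libraries (-0.06 ± 0.47, adjusted p = 0.900). All windows of H3C15 occur in another gene, most often in H3C14, and all windows of H3C14 are shared too. H3C14, not tested, had 2.28, 0 and 0 TPM in LF3 libraries and was listed at 0 in all CON libraries. Neither value can therefore be read singly.

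How far reads could be placed on single copies was measured on the annotation. Of the 58 genes, 22 had no 50-base window (the read length) that also occurs in a transcript of another gene, on either strand, and 6 had every window shared. Other tested genes with much sharing were H2AC7 (98.0%), H2AC17 (86.3%), H4C11 (81.2%), H3C13 (80.4%) and H2AC13 (62.3%), besides those named above. Among the 16 tested genes with no shared window, 12 were called lower, where 32.3% of all tested genes were. Of these, H1-3, H1-4, H3C1 and H4C5 averaged under 1 TPM in LF3 and reached the mean for testing through CON. That count is therefore a description of the genes that passed. With only the 43 genes sharing at most 50% of their windows, the log2 ratio of the total sums was -3.56, against -3.31 for all 58.

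The genes known to give polyadenylated mRNA (H1-2, H2AC6, H2BC4, H2BC5, H2BC12 and H2BC21) held 59.2 ± 1.41% of the histone sum in LF3 and 56.7 ± 0.616% in CON. Their sum was 159 ± 2.89 TPM in LF3 and 1506 ± 33.5 TPM in CON, 9.501-fold lower. The other 52 genes summed to 109 ± 6.60 TPM in LF3 and 1149 ± 31.2 TPM in CON, 10.5-fold lower. Both sets were lower by similar folds, and the difference between them was not tested.

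By position, RefSeq (GRCh38.p14) places 48 of the genes on chromosome 6 and 10 on chromosome 1. The chromosome 1 genes summed to 49.8 ± 2.16 TPM in LF3 and 941 ± 17.98 TPM in CON, 18.9-fold lower, most of it from H2AC18, H2BC21, H4C14 and H4C15. The chromosome 6 genes summed to 218 ± 6.55 TPM in LF3 and 1714 ± 40.8 TPM in CON, 7.86-fold lower. They supplied 81.4 ± 0.584% of the histone sum in LF3 and 64.6 ± 0.350% in CON.

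In 8 places an H2A and an H2B gene face away from each other with starts at most 248 bases apart, so that they share the sequence between them. In 5 of these pairs the CON levels were within 2-fold of each other and both genes were called lower. All 9 tested H2A and all 11 tested H2B genes were called lower, so the shared call says nothing particular to the pairs. H2AC8 averaged 1.88 TPM in LF3 and 36.9 TPM in CON beside H2BC8 at 2.36 TPM in LF3 and 60.7 TPM in CON; the others were H2AC7 with H2BC7, H2AC11 with H2BC11, H2AC15 with H2BC15 and H2AC6 with H2BC4. All windows of H2AC15 also occur in another gene, most often in an annotated transcript of its partner H2BC15, so that pair is not independent. H2AC7 shares 98.0% of its windows with other annotated transcripts, so its own level is not certain either. The partners H2AC20 and H2BC21 differed in level in CON. H2AC20 averaged 1.88 TPM in LF3 and 4.45 TPM in CON, while its partner H2BC21 averaged 3.94 TPM in LF3 and 214 TPM in CON. H2AC6 and H2BC4 differed mainly in LF3: H2AC6 averaged 31.4 TPM in LF3 and 179 TPM in CON, while its partner H2BC4 averaged 4.08 TPM in LF3 and 139 TPM in CON. In the remaining pairs the H2B partner was too low to be tested. H2AC13 averaged 1.21 TPM in LF3 and 3.77 TPM in CON, beside H2BC13 at 0.717 TPM in LF3 and 0.587 TPM in CON. H2AC17 averaged 2.39 TPM in LF3 and 4.74 TPM in CON, beside H2BC17 at 0.323 TPM in LF3 and 1.08 TPM in CON. These differences between partners were not tested.

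The promoters show which elements these genes share. RefSeq gave the 250 bases before the start for 53 of the 58 genes, and 5 motifs were searched on both strands. The CCAAT box (CCAAT), bound by NF-Y, was found in all 6 H1, 13 H2A, 14 H2B and 11 H3 promoters but in 1 of 9 H4 promoters, against 37.0% of 27305 genes. The octamer ATTTGCAT, bound by POU2F1, was in 10 of the H2A and 11 of the H2B promoters, against 2.0% of all genes. The H1 box AAACACA was in all 6 H1 promoters, in none of the other 47 and in 6.0% of all genes. GGTCCG, part of the element bound by HINFP in H4 promoters, was in all 9 H4 promoters and in 11.3% of all genes, and TATAAA was in 66.0% of the histone promoters and 13.0% of all genes. The last 150 bases before the start are printed for the leading H1 gene, for H2BC21 and H2BC12, H2B genes whose changes differed widely, and for H4C14. Capitals mark these motifs on either strand.
H1-2 (chr6:26056471-26056620, minus strand): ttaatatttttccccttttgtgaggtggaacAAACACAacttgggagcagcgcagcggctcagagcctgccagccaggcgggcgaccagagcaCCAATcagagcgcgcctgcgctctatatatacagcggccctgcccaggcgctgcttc
H2BC21 (chr1:149886683-149886832, minus strand): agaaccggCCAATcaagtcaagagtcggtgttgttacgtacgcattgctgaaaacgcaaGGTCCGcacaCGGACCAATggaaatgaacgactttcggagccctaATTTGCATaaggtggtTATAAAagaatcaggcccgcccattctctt
H2BC12 (chr6:27146859-27147008, minus strand): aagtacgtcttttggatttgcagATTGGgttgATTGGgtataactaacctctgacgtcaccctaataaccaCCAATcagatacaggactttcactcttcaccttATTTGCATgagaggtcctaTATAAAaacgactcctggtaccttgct
H4C14 (chr1:149832507-149832656, plus strand): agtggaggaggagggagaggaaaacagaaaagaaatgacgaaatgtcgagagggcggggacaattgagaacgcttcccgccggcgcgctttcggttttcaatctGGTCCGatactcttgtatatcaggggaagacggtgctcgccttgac
Both H2B promoters hold the octamer, CCAAT boxes and TATAAA, although H2BC21 was 54.2-fold lower in LF3 and H2BC12 1.34-fold. The H2BC21 stretch also holds GGTCCG on both strands, the reverse match overlapping its CCAAT box, and the H2BC12 stretch does not. Among H2A promoters GGTCCG was found only in that of H2AC20, the partner of H2BC21, which was 2.36-fold lower in LF3. The tested H2B genes without GGTCCG ranged from 1.34-fold (H2BC12) to 140.5-fold lower (H2BC7, at 0.157 TPM in LF3). Whether GGTCCG bears on these changes was not tested. A match is a description of the letters and does not show that a factor was bound.

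The histone variants listed as replication-independent were called in both directions, as were all genes. Of 22 listed variants 16 were in the table and 10 were tested, with 7 higher and 3 lower in LF3, where 53.2% of all tested genes were higher and 32.3% lower (6 and 4 after median-ratio scaling). H1-10, a linker histone variant, had 113 ± 2.38 TPM in LF3 and 264 ± 12.9 TPM in CON and fell by 1.22 ± 0.042. H2AJ was also called lower (-0.83 ± 0.037), named here after its value was seen. On the other side, H2AZ1, the H2A.Z gene, had 947, 980 and 1025 TPM in LF3 libraries, against 281, 261 and 247 TPM in CON libraries and rose by 1.90 ± 0.048. H2AX, the variant phosphorylated at DNA breaks, rose by 1.79 ± 0.055 and H2AZ2 by 1.23 ± 0.036. Of the genes for H3.3, H3-3A averaged 502 ± 9.35 TPM in LF3 and 361 ± 7.03 TPM in CON (0.47 ± 0.031). H3-3B averaged 360 ± 5.33 TPM in LF3 and 336 ± 0.921 TPM in CON (0.10 ± 0.030, adjusted p = 0.0107), which turned to -0.18 after median-ratio scaling and to -0.08 after quantile normalization. Each H3.3 gene held more TPM than all replication-dependent H3 genes together, in both groups. Most replication-dependent histone mRNAs carry no poly(A) tail and selection of poly(A) RNA was not given, so this compares listed values only.

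Among genes that make and process histone mRNA, 14 of 24 tested were higher, 4 lower and 6 neither, a share of higher genes near the 53.2% over all tested genes (13 higher and 10 lower after median-ratio scaling, where 42.5% of all tested genes were higher and 42.9% lower). SLBP, the stem-loop binding protein, had 107, 109 and 109 TPM in LF3 libraries, against 38.1, 37.3 and 38.3 TPM in CON libraries, and rose by 1.49 ± 0.040 (adjusted p = 7.07e-11). CPSF3, the nuclease that cuts histone pre-mRNA, rose by 1.91 ± 0.057, and SRRT, a cap-linked cofactor, by 1.72 ± 0.046. NPAT, the coactivator of histone transcription, averaged 6.36 ± 0.726 TPM in LF3 and 3.83 ± 0.746 TPM in CON (0.61 ± 0.12, adjusted p = 0.000652). CASP8AP2 (FLASH), which acts with NPAT and in processing, rose by 1.05 ± 0.092. LSM11, of the U7 particle, fell by 0.51 ± 0.078. LSM10, of the same list, rose by 1.11 ± 0.072 and is named here after its value was seen. The other genes called lower were TUT7, XRN1 and GON4L, named after their values were seen, of which TUT7 and XRN1 act in RNA decay. HINFP and POU2F1, singled out for the motifs above, did not pass. HINFP gave -0.17 ± 0.11 (adjusted p = 0.150) and POU2F1 -0.09 ± 0.071 (adjusted p = 0.256), and after median-ratio scaling both were called lower, HINFP at -0.42 (adjusted p = 0.00392) and POU2F1 at -0.34 (adjusted p = 0.000521).

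Of 31 tested chaperone and import genes, 25 were higher, 4 lower and 2 neither, against 53.2% higher and 32.3% lower over all tested genes. After median-ratio scaling 24 were higher and 6 lower, against 42.5% and 42.9%. CHAF1A, of the factor that loads new histones onto copied DNA, had 58.3, 57.1 and 60.5 TPM in LF3 libraries, against 12, 10.65 and 11.07 TPM in CON libraries, and rose by 2.29 ± 0.058 (adjusted p = 5.18e-11). The import gene IPO4 rose by 2.57 ± 0.058, and the H3-H4 chaperone genes ASF1B and NASP rose by 1.77 ± 0.044 and 1.74 ± 0.041. The genes called lower were UBN2, SPTY2D1, CABIN1 and NAP1L1, named after their values were seen. All 26 S phase genes were higher (25 after median-ratio scaling, CDT1 excepted), with a median log2 fold change of 2.08 beside 0.24 over all tested genes. RRM2, a subunit of the enzyme that makes deoxynucleotides, had 172, 182 and 188 TPM in LF3 libraries, against 42.4, 47.6 and 44.4 TPM in CON libraries. CCNE2, a cyclin E gene, averaged 11.0 ± 0.320 TPM in LF3 and 3.65 ± 0.156 TPM in CON. E2F1, the factor that drives S phase genes, rose by 1.85 ± 0.087 and CDC6, which licenses origins, by 0.92 ± 0.045. These lists were chosen with earlier results of these data known, and MCM2 stands in both.

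**Figure D4:**
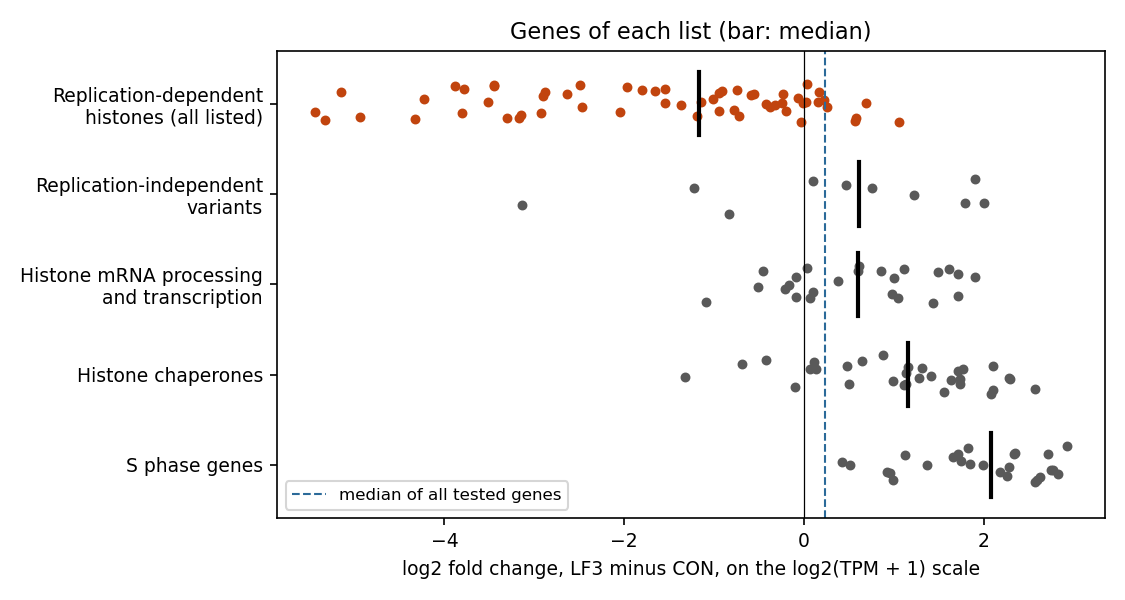
log2 fold change (LF3 minus CON, log2(TPM + 1) scale) of all 58 replication-dependent histone genes, fitted with no filter, and of the tested genes of 4 other lists; bars are medians and the dashed line is the median of all tested genes, 0.24. The histone median is -1.17, beside 0.02 over all genes in the same fit with no filter, and the S phase median is 2.08. After median-ratio scaling the processing list holds 13 higher and 10 lower genes.

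The whole table moved as well, which bounds how these counts are read. Of the 12195 tested genes 85.5% were called, and the median log2 fold change over all of them was 0.24, or -0.0093 after median-ratio scaling. The table listed 1948 to 1986 genes at 0 in LF3 libraries and 1359 to 1407 in CON libraries. Of 8 squamous epithelial markers 7 were tested, and their summed level was 1086 to 1128 TPM in LF3 and 856 to 889 TPM in CON, with KRT14 under 1 TPM throughout. Of the 7 tested, 4 were called higher and 2 lower, where 53.2% of all tested genes were higher and 32.3% lower. After median-ratio scaling 2 were higher and 4 lower, against 42.5% and 42.9%. KRT5 averaged 454 TPM in LF3 and 102 TPM in CON, while KRT17 had 58.04 to 59.42 TPM in LF3 and 192 to 209 TPM in CON. Sums of markers of other cell types were 6.81 to 7.69 TPM in LF3 and 14.8 to 15.7 TPM in CON for fibroblasts (DCN at 0 in LF3), 6.24 to 7.26 TPM in LF3 and 0.390 to 0.530 TPM in CON for endothelial cells (nearly all CDH5), and 1.73 to 2.41 TPM in LF3 and 0.620 to 0.980 TPM in CON for 3 leukocyte markers (PTPRC at 0 in LF3). Their part in the result was not tested.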

How the data were processed

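RNA of 6 libraries was read as single-end 50-base reads, per the labels' protocols. The submitters' processing notes name HISAT and Bowtie2, without versions, and the build GRCm38.p6, a mouse assembly, although the table's identifiers and symbols are human. The genome used for these reads was not given in the sources used here. Deposited values are TPM per gene, by the authors, each library summing to the same total, which leaves the depth unknown, and no counting interval is printed. Treatment of reads that match several copies was not given in the sources used here.

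Values were transformed to log2(TPM + 1). LF3 was compared with CON with limma 3.58.1 in R 4.3.3 (trend option on, two-sided, Benjamini-Hochberg over the 12195 genes averaging 1 TPM or more, threshold 0.05). With 3 against 3 libraries an exact permutation test cannot go below p = 0.1, and was not used. Pairs of libraries of the same group had equal values in 0.320 to 0.541% of tested genes, and each library was kept as 1 sample. In simulated data for this comparison (12234 genes) the fit called 88.2% of 68 genes changed by 0.5, 95.5% of 66 changed by 1 and 100% of 66 changed by 3 on the log2 scale. It also called 9 unchanged genes. The changed genes were drawn only from those above a CON level cut, so these rates do not cover genes low in both groups. Stem-loops and shared windows were read from GENCODE v29 transcripts and promoters from RefSeq, GRCh38.p14. Named genes are every histone gene tested and untested ones above 0 in all libraries of a group. Of each other list they are a fixed set and up to 3 called genes of smallest adjusted p, of which some are not printed. H1-1, H2AC14, H2BC10, H3C14 and H4C1 were named after their values were seen. Members and lists were chosen with earlier results of these data known. Alternatives were 2 other pseudocounts (0.1 and 0.5), no filter, a filter of 5 TPM, 2 scalings, 3 limma settings, a replicate block and leaving out each library. Figures used matplotlib 3.10.9. The values of 1 variant gene are not reported here.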

Additional observations from a re-analysis of the deposited data

How the results depend on the processing

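Of 655 comparisons of a tested histone gene under another setting, 650 kept the direction and the side of the threshold, 1 lost its call (H4C12), 4 gained one (H3C3, H4C3 and, under 2 settings, H3C8) and 0 reversed. The count of histone genes called higher was 0 and became 1 with no filter, and it ranged from 0 to 2 when a library was left out, the 2 being H3C3 and H4C3 without LF3 replicate 1. Histone mRNA processing genes called lower numbered 4, and 10 after either scaling. Of the other lists, HINFP, POU2F1, CPSF1, SMG1, YY1, CRAMP1 and UBN1 gained a lower call after median-ratio scaling, and CDT1 and ZNF473 lost a higher one. DAXX turned from 0.13 and called higher to -0.14 and called lower (limma adjusted p = 0.00788). CPSF1, SMG1, YY1, CRAMP1, UBN1, ZNF473 and DAXX were named after their values were seen. NAP1L1 lost its call with no filter (adjusted p = 0.0694). H3-3B lost its call without a variance trend (adjusted p = 0.0686) and turned to -0.18 after median-ratio scaling and -0.08 after quantile normalization.

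The log2 ratio of all summed histone TPM, -3.31, was -3.58 after median-ratio scaling, -3.54 after quantile normalization, -3.15 without H1-2 and, chosen after seeing the data, -3.56 with only genes sharing at most 50% of windows. In the same order of scalings, H1 gave -4.19 and -4.17 (-4.19 without H1-2), H2A -3.90 and -3.83, H2B -3.33 and -3.31, and H4 -3.16 and -3.15; H3 gave -1.87 after median-ratio scaling. Without its most abundant member the ratio was -2.48 for H2A, -2.90 for H2B and -1.18 for H3. With only genes sharing at most 50% of windows it was -2.51 for H2A, -4.07 for H2B, -1.30 for H3 and -3.43 for H4. With only members above 0 in all 6 libraries, also chosen after seeing the data, it was -3.70 for H2A, -1.97 for H3 and -2.63 for H4, and with only members of a mean of at least 1 TPM -3.70 for H2A. The cause of these shifts was not tested beyond the genes left out by each sum.

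With the replicate number as a block, 37 histone genes were called lower and 0 higher, and none of the 67 genes followed across settings changed its call. Libraries of the same number deviated together with correlations of 0.048, 0.106 and 0.160 over genes, not above 0.1 in every pair, so the numbers were not taken to pair the libraries. The unknown depth limits genes near 1 TPM, where the lowest value above 0 of a histone gene was 0.02 TPM.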
